A study of Mus musculus with 73 samples.

Results

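The H2 locus on chromosome 17 is the major histocompatibility complex (MHC) of the mouse. Its genes were described here in RNA of 73 mouse mammary tumours, taking every gene symbol of the deposited count table that begins with H2-. This gave 45 of 39438 symbols. By gene symbol and annotation they fell into 2 classical class I genes (H2-K1 and H2-D1), 22 class Ib genes, 9 class II genes, 11 genes annotated as pseudogenes and H2-Ke6, a steroid dehydrogenase gene (Hsd17b8) that lies in the locus and makes no MHC molecule.

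The tumours fell into 8 groups. Tumours titled L1363P, with the genotype label KB1(L1363P)P and the Brca1 variant p.L1363P, comprised 9 sarcomatoid tumours, 9 carcinosarcomas and 3 adenocarcinomas. KP tumours comprised 3 carcinosarcomas and 5 adenocarcinomas. The remaining adenocarcinomas were 23 with genotype KB2P and 21 with genotype KB1P, of which 10 were titled KB1PM and 11 KB1P; the labels do not say what the M stands for. As background, p53 is lost in mammary epithelium through a keratin 14 promoter Cre in all of these models, alone in KP, together with BRCA2 in KB2P and together with BRCA1 in KB1P. The labels name no mouse strain, no age and no treatment. They do not say whether tumours came from separate animals, so p-values measure the spread between these samples, and L1363P carcinosarcomas 54.1 and 54.2 share a number. A sequencing run was taken from the number that opens a library's description. The 29 L1363P and KP libraries share run 5625, KB2P libraries belong to runs 2459, 2749 and 2802, KB1PM libraries to runs 1725 and 1756, and KB1P libraries to runs 1857, 2119 and 3528. Genotype and run therefore cannot be told apart wherever KB2P, L1363P or KP tumours are set against KB1P tumours.

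Classical class I molecules, a polymorphic heavy chain paired with beta 2 microglobulin, display peptides made inside nearly every cell to CD8 T cells. Class II molecules, an alpha and a beta chain (I-A from H2-Aa and H2-Ab1, I-E from the E alpha and E beta genes), display peptides from endocytosed material to CD4 T cells and are made mainly by macrophages, dendritic cells and B cells, or after interferon gamma by other cells through the transactivator CIITA. Class I genes answer to interferon and to the related transactivator NLRC5. The H2 genes are the most polymorphic genes of the mouse, inbred strains differ in which H2 genes they carry, and reads of another haplotype may map poorly to the reference, which is C57BL/6 (haplotype b). Mice of haplotype b make no E alpha chain, because the promoter of that gene is deleted.

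The promoters of 4 genes are printed because H2-K1, H2-D1 and H2-Aa carry the class I and class II levels described below, and H2-Eb1 departs from its class. Each runs 5′ to 3′ on the gene's strand, from 250 bases before to 50 bases after the start in RefSeq (GRCm38.p6). Capitals mark matches, on either strand, to GGGATTCCC (the kappa B core), TGACG (a cyclic AMP element core), TAGCAAC (an X box core) and ATTGG, read as CCAAT on the other strand (the Y box). In H2-Aa the TGACG matches of the 2 strands overlap.
H2-K1, chr17:34000298-34000597, minus strand: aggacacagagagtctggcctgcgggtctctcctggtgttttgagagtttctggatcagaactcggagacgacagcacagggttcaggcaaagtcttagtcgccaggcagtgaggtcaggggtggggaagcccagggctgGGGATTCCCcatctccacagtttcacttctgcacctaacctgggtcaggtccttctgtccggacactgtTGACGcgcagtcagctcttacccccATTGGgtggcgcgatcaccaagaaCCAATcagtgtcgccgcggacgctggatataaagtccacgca
H2-D1, chr17:35262844-35263143, plus strand: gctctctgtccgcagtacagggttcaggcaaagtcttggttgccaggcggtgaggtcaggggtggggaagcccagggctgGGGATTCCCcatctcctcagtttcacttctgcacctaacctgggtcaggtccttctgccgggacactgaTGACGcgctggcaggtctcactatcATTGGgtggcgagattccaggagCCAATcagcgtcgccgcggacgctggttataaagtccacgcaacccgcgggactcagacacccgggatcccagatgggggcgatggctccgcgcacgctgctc
H2-Aa, chr17:34287774-34288073, minus strand: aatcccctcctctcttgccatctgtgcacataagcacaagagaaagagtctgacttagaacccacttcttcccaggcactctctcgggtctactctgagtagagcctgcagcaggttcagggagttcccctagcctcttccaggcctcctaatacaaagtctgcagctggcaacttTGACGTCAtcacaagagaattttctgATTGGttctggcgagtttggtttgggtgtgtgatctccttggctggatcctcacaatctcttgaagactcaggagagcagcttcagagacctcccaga
H2-Eb1, chr17:34305617-34305916, plus strand: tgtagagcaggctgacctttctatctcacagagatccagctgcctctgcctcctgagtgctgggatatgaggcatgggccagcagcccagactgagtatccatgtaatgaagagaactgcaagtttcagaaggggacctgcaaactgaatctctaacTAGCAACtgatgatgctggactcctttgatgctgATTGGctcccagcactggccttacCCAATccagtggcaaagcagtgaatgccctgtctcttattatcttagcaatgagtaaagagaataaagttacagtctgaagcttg

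Of the 45 symbols, 32 had a promoter in the RefSeq table. ATTGG occurred in 29 of these 32 genes, against 37.4% of 32851 promoters of the same length genome-wide. TGACG occurred in 12 genes (20.8% of all promoters), GGGATTCCC in 4 (0.353%), TAGCAAC in 3 (3.66%) and GAAANNGAA, an interferon response element core, in 2 (8.56%). H2-K1 and H2-D1 hold the same matches in the same order: the kappa B core, the cyclic AMP element core and the Y box on either strand. The matches describe the reference sequence of C57BL/6, and the tumours' own alleles were not read.

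Total counts per tumour were 7325180 to 31615237, and the H2 genes took 0.0271 to 1.04% of them. Levels are given as CPM, that is each count as parts of 1e6 counts of its library, after scaling by trimmed means of M values over the 73 libraries. H2-M10.5 had no count in any tumour, which allows a level of up to 0.00283 CPM over all libraries (3 counts, counting error only). It was 1 of 9 members that stayed under 10 counts in every library, most of them H2-M10 genes known from the vomeronasal organ, and 34 of the 45 members passed the filter on low counts in the fit of all 73 libraries. The labels give adenocarcinomas as 100% epithelial and sarcomatoid tumours as 0%. The summed level of 8 epithelial markers was 65.8 to 455 CPM in sarcomatoid tumours, and 3 tumours labelled adenocarcinoma were no higher than that: KB2P tumour 30 (14.8 CPM), KB1PM tumour 8 (145 CPM) and KP tumour 90.01A (250 CPM). Counts of H2 calls that involve them are also given without them, as is whether correlations passed. Calls of marker and pathway genes are given only with them. Across bulk samples, fewer cells of a type and less RNA per cell cannot be told apart.

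Per kilobase of exon, H2-D1 was the most abundant member, with a median of 352 CPM per kb over the 73 tumours, followed by H2-K1 at 163. The class II chains H2-Aa and H2-Ab1 followed at medians of 52.4 and 44.9 CPM per kb. Among class Ib genes the highest medians were those of H2-Q4 (26.3 CPM per kb), H2-Q6, one of the Qa-2 genes (15.8), and H2-Q2 (10.5). H2-T23, which encodes the NK cell and T cell ligand Qa-1, stood at 8.64 CPM per kb, and H2-M3, which presents formylated peptides, at 7.52. H2-DMa and H2-DMb1, the 2 chains of the DM molecule that loads class II with peptide, stood at 4.68 and 6.95 CPM per kb. Of the summed H2 level, classical class I took a median of 65.2% per tumour (33.5 to 80.7%), class II 18.3% (3.95 to 49.9%), class Ib 11.7% and pseudogenes 2.72%. In KB2P tumours the median share was 53.1% for class I and 29.6% for class II, against 67.0% and 15.8% in KB1PM tumours and 68.9% and 15.5% in KB1P tumours; the groups' ranges overlapped.

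H2-K1 spanned a wide range within most groups. Its level (lowest, median, highest CPM) was 320, 456 and 1344 in L1363P sarcomatoid tumours and 212, 1042 and 1814 in L1363P carcinosarcomas. The 3 L1363P adenocarcinomas had 270, 727 and 902 CPM, and the 3 KP carcinosarcomas 1396, 1426 and 2070 CPM. KP carcinosarcomas had the highest lowest value of the 8 groups. The 5 KP adenocarcinomas had 216, 463, 871, 910 and 1635 CPM. In the other adenocarcinomas H2-K1 had 49.5, 341 and 2629 CPM in KB2P, 86.6, 441 and 1581 CPM in KB1PM and 144, 526 and 1320 CPM in KB1P tumours. The lowest and the highest tumour of the whole series were both KB2P.

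H2-D1 followed the same order of medians in the groups of run 5625, and like H2-K1 it had its lowest group median in KB2P tumours. It had 601, 1204 and 3053 CPM (lowest, median, highest) in L1363P sarcomatoid tumours and 399, 2199 and 3665 CPM in L1363P carcinosarcomas. The L1363P adenocarcinomas had 543, 1410 and 1461 CPM, the KP carcinosarcomas 2764, 2804 and 3414 CPM and the KP adenocarcinomas 495, 1077, 1444, 1794 and 3962 CPM. All 3 KP carcinosarcomas lay above 4 of the 5 KP adenocarcinomas and below the highest of them. KB2P tumours had 86.6, 305 and 1822 CPM, KB1PM tumours 105, 713 and 2538 CPM and KB1P tumours 210, 893 and 1945 CPM. Expressed as H2-D1 counts per 100 H2-K1 counts of the same tumour, which does not depend on library depth, the values were 151 to 264 in the 29 tumours of run 5625, 60.6 to 177 in KB2P, 114 to 195 in KB1PM and 136 to 191 in KB1P tumours. The ratio was below 100 in some KB2P tumours and in no tumour of another group.

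H2-Aa had 69.7, 210 and 1362 CPM (lowest, median, highest) in L1363P sarcomatoid tumours and 199, 529 and 3227 CPM in L1363P carcinosarcomas. The L1363P adenocarcinomas had 123, 229 and 357 CPM, the KP carcinosarcomas 149, 517 and 785 CPM and the KP adenocarcinomas 199, 298, 371, 486 and 756 CPM. L1363P carcinosarcoma 4 and sarcomatoid tumour 32 stood far above the rest of their groups. KB2P tumours had 33.6, 166 and 1565 CPM, KB1PM tumours 39.0, 114 and 554 CPM and KB1P tumours 29.0, 133 and 897 CPM, so that all 3 overlapped. H2-Ab1, the beta chain of the same molecule, had 38.6 to 62.9 counts per 100 H2-Aa counts in the 29 tumours of run 5625, 63.1 to 115 in KB2P, 63.2 to 78.8 in KB1PM and 57.9 to 83.3 in KB1P tumours.

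**Figure D1:**
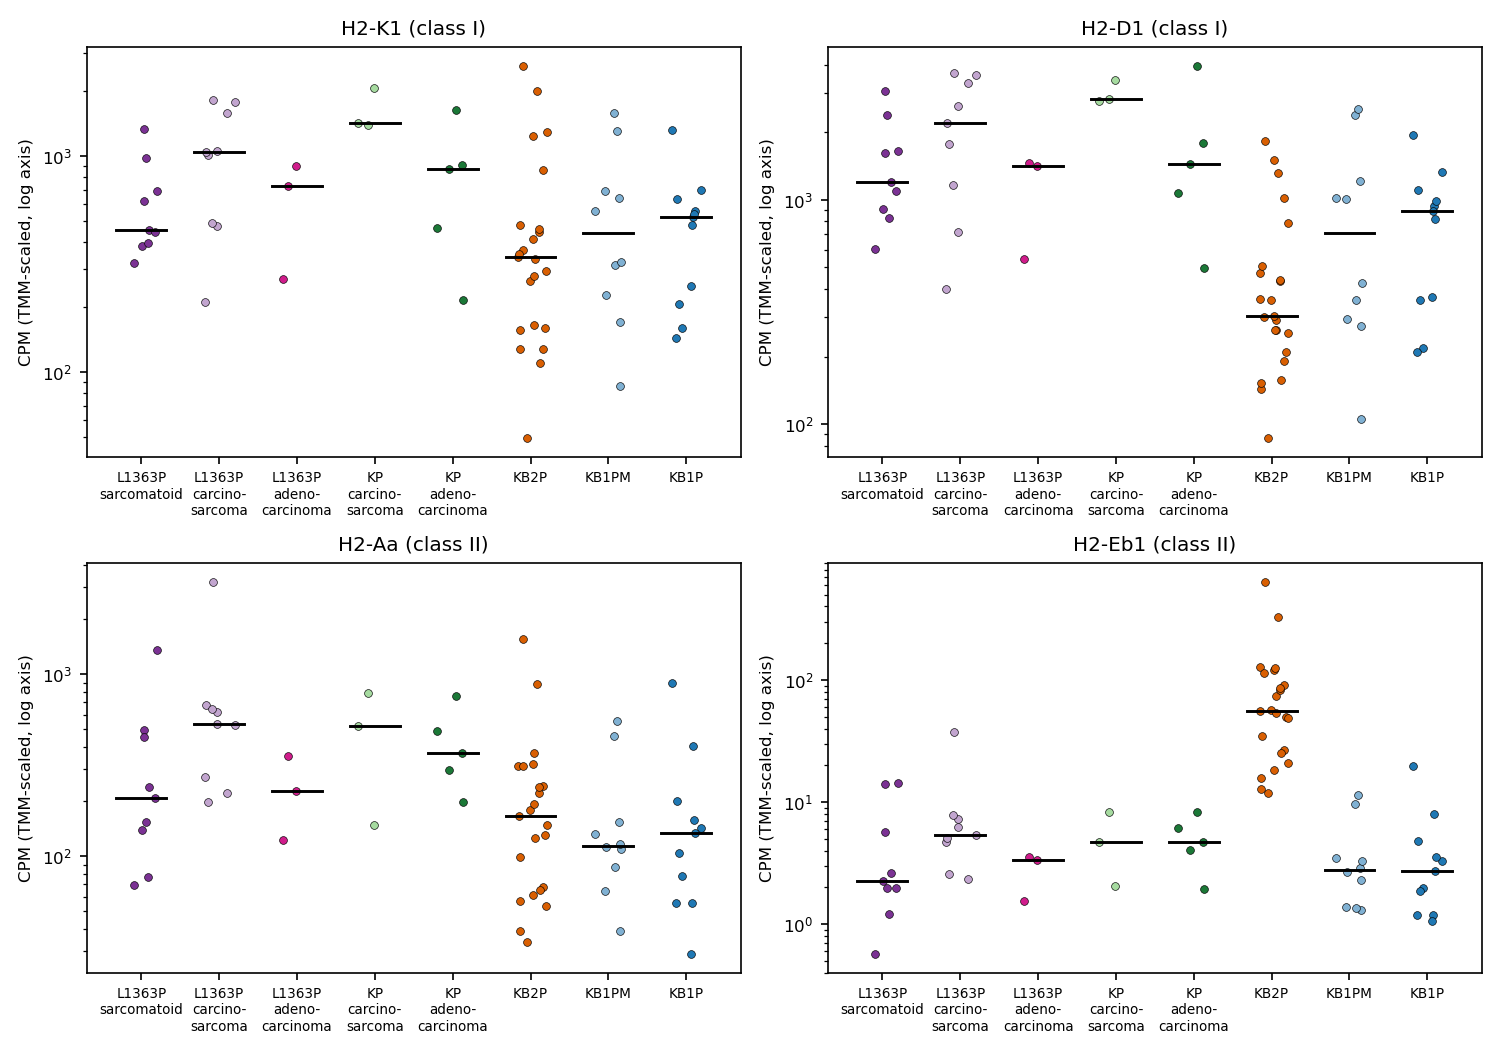
Levels of H2-K1, H2-D1, H2-Aa and H2-Eb1 in CPM on a log axis, 1 point per tumour, by group, with a bar at each group's median. The first 3 genes overlap between KB2P, KB1PM and KB1P tumours, and H2-Eb1 is higher in KB2P tumours (median 55.5 CPM, 11.8 to 639) than in most of the 50 other tumours (median 3.33 CPM, 0.568 to 37.3).

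H2-Eb1, the beta chain of I-E, set the KB2P tumours apart. It had 11.8, 55.5 and 639 CPM (lowest, median, highest) in the 23 KB2P tumours, against 1.06, 2.74 and 19.7 CPM in the 21 KB1P tumours of both titles, and 19 of the 23 KB2P tumours lay above all 21. In the fit of all 73 libraries with edgeR's quasi-likelihood test it was higher in KB2P by 4.51 on the log2 scale (SE 0.47, Benjamini-Hochberg adjusted p = 1.28e-11), and it was called in all 11 alternatives, with log2 fold changes of 3.41 to 5.36. Counted against H2-Aa of the same tumour, H2-Eb1 had 27.5 to 42.6 counts per 100 (median 37.2) in KB2P tumours and 0.739 to 3.65 (median 1.52) in the 50 others. The ranges did not overlap, and the ratio varied 1.55-fold among KB2P tumours while H2-Eb1 itself varied from 11.8 to 639 CPM. All 3 KB2P runs showed it, with 31.5 to 40.8 in run 2459, 29.9 to 42.6 in run 2749 and 27.5 and 38.6 in the 2 tumours of run 2802. In KB1P tumours the ratio was 1.72 to 3.65, in KB1PM tumours 1.56 to 3.33, and in the 29 tumours of run 5625 it was 0.739 to 3.13. H2-Ea-ps, the E alpha gene that is a polymorphic pseudogene in the annotation, did not follow: it had a median of 1.13 CPM in KB2P, 1.25 CPM in KB1PM and 0.935 CPM in KB1P tumours, and its log2 fold change in KB2P against KB1P was 0.09 (SE 0.44, adjusted p = 0.925, same edgeR test). None of the 50-base words of H2-Eb1 or H2-Aa occurs in another H2 gene of the reference. Whether the tumours differ in H2 haplotype, or in how their reads map to the reference, was not tested.

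**Figure D2:**
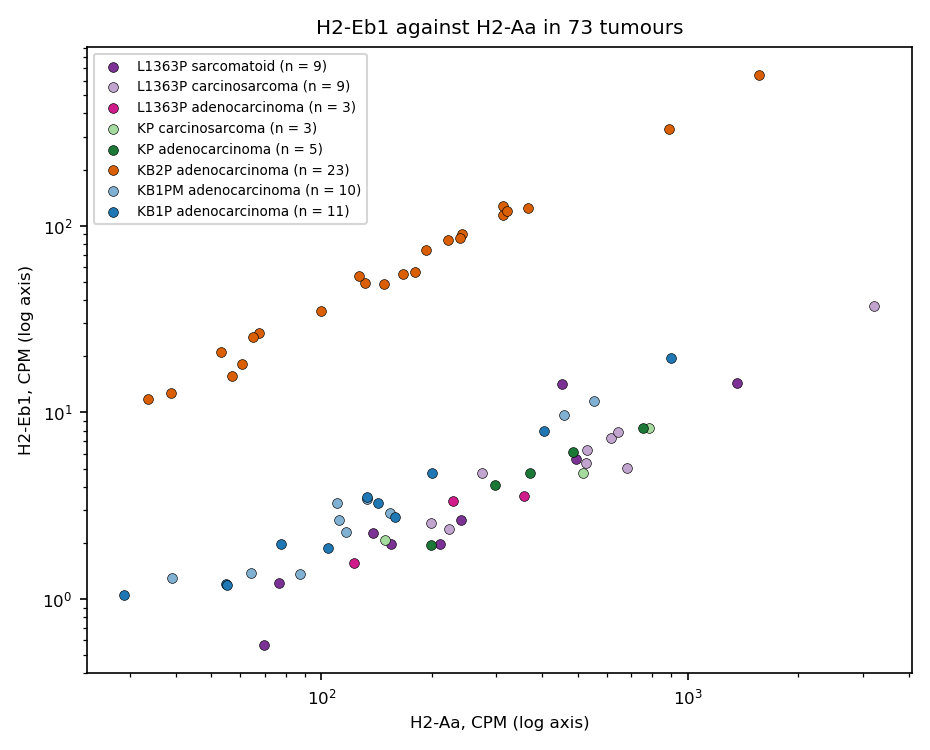
H2-Eb1 against H2-Aa in CPM on log axes, 1 point per tumour for all 73 tumours, coloured by group. KB2P tumours form a band of their own (27.5 to 42.6 H2-Eb1 counts per 100 H2-Aa counts), and the 50 other tumours lie along a lower band (0.739 to 3.65).

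Across the locus, KB2P tumours differed from KB1P tumours in both directions. Of 34 H2 genes tested 9 were higher and 7 lower in KB2P, beside 13.2% of all 18488 genes called in either direction. The higher genes were 5 of 9 class II genes, 2 of 15 class Ib genes, the pseudogene H2-Q5 and H2-Ke6. The lower genes were 3 class Ib genes and 4 of 7 pseudogenes, and neither classical class I gene was called. The median log2 fold change was 0.51 over the 34 H2 genes and 1.17 over the 9 class II genes, against 0.04 over all genes.

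Among the class II genes called, H2-Eb2, a second E beta gene, was at 0 to 5.38 CPM (median 0.105) in KB2P and 0 to 1.15 CPM (median 0) in KB1P tumours, with a log2 fold change of 3.01 (SE 0.67, adjusted p = 0.00105, edgeR as above). H2-Ob and H2-Oa encode the chains of H2-O, which inhibits DM and is made by B cells. H2-Ob rose by 1.70 on the log2 scale (SE 0.52, adjusted p = 0.0205) and H2-Oa by 1.47 (SE 0.50, adjusted p = 0.0367) in KB2P. Both calls depended on the setting: H2-Ob was called in 6 of 11 alternatives (log2 fold changes of 0.09 to 2.51) and H2-Oa in 4 of 11 (0.25 to 2.41). Neither was called with limma, with only the groups compared or with the KB2P tumours of run 2749 alone (H2-Ob 0.85, adjusted p = 0.396; H2-Oa 0.25, adjusted p = 0.831), and H2-Oa was not called with no filter on low counts or without the 2 KB1P tumours of run 3528. H2-DMb1 had 1.95, 13.9 and 75.7 CPM (lowest, median, highest) in KB2P and 0.952, 4.95 and 25.3 CPM in KB1P tumours, a log2 fold change of 1.17 (SE 0.31, adjusted p = 0.00683) that was not called with run 2749 alone (0.57, adjusted p = 0.365). It shares 22.7% of its 50-base words with H2-DMb2, which was not called in the main fit, so reads could be assigned to either. The I-A chains were not called: H2-Aa had a log2 fold change of 0.40 (95% interval −0.38 to 1.19, adjusted p = 0.559) and H2-Ab1 0.58 (−0.23 to 1.39, adjusted p = 0.387). H2-DMa had 0.68 (0.08 to 1.27, adjusted p = 0.131). With the KB2P tumours of run 2459 alone H2-Ab1 (1.47, adjusted p = 0.0288) and H2-DMa (1.41, adjusted p = 0.0052) were called higher.

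Markers of B cells moved with part of this. Of 6 B cell markers 5 were higher in KB2P, among them the B cell receptor gene Cd79a (log2 fold change 2.80, SE 0.62, adjusted p = 0.000997). Of 10 macrophage markers 1 was lower, Mrc1 (log2 fold change −1.12, adjusted p = 0.00662), and none was higher. Of 9 T and NK cell markers 1 was higher, and of 8 dendritic cell markers 1. The summed B cell level was 0.761 to 137 CPM in KB2P, against 0.831 to 22.9 CPM in KB1PM and 0.846 to 9.92 CPM in KB1P tumours. It was 83.6 to 137 CPM in 4 KB2P tumours (13, 17 and 18 of run 2459 and 38 of run 2749) and 0.761 to 5.81 CPM in the other 19, and Cd79a had 12.1 to 22.3 CPM in the 4 and 0 to 0.615 CPM in the other 19. The same 4 tumours were also the highest KB2P tumours in summed T and NK cell markers. These were at 107, 56.7, 48.7 and 121 CPM in that order, and the next tumour, 12, was at 37.3 CPM. H2-Eb2 had 2.67 to 5.38 CPM in those 4 tumours and 0 to 0.988 CPM in the other 19, and H2-Ob 19.2 to 26.6 CPM against 0 to 21.2 CPM (median 0.911). Without the 4 tumours, an alternative added after the data had been seen, H2-Eb1 was still called (log2 fold change 4.34, adjusted p = 1.36e-10), and so was H2-DMb1 (1.05). The calls were lost for H2-Eb2 (0.90, adjusted p = 0.336), H2-Oa (1.07, adjusted p = 0.165), H2-Ob (0.29, adjusted p = 0.745) and H2-Q5 (1.23, adjusted p = 0.0835). The part of B cells, or of T and NK cells, in these calls was not tested. H2-Eb1 per 100 H2-Aa counts was 33.4 to 37.3 in the 4 tumours and 27.5 to 42.6 in the other 19. In 1 KB2P tumour with few B cell markers, tumour 16 of run 2459, H2-Oa (23.3 CPM), H2-Ob (21.2 CPM), H2-Eb1 (639 CPM) and the class Ib gene H2-M5 (25.8 CPM) were all at or near the top of the group while its summed B cell level was 4.32 CPM.

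**Figure D3:**
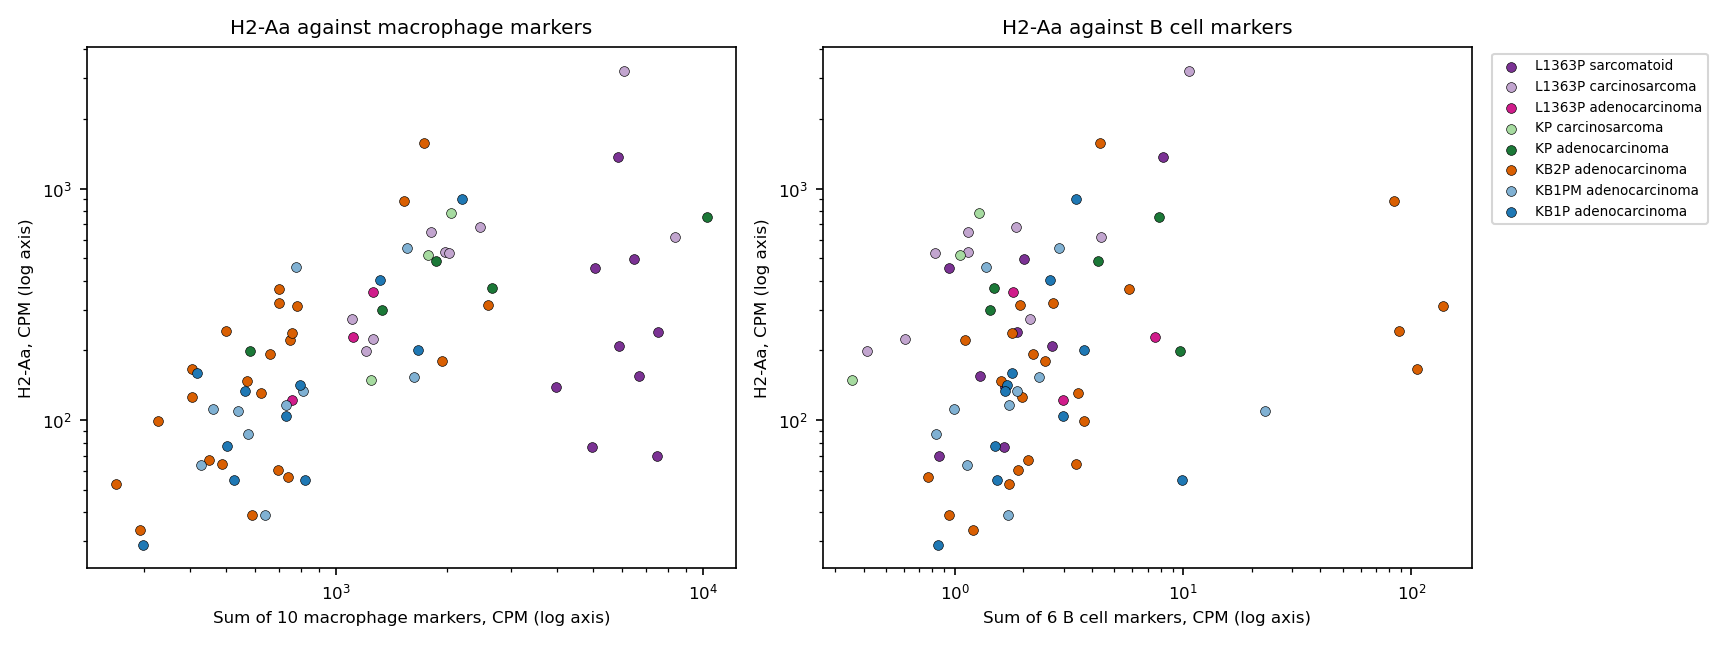
H2-Aa in CPM against the summed level of 10 macrophage markers and of 6 B cell markers, log axes, 1 point per tumour, coloured by group. A set of 4 KB2P tumours lies apart at 83.6 to 137 CPM of B cell markers, and the L1363P sarcomatoid tumours lie at 3967 to 7557 CPM of macrophage markers and 69.7 to 1362 CPM of H2-Aa.

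Class Ib genes and pseudogenes split within KB2P. H2-T22, whose product is seen by gamma delta T cells, had 2.32, 12.2 and 109 CPM (lowest, median, highest) in KB2P and 3.45, 7.51 and 24.6 CPM in KB1P tumours, and rose by 1.52 on the log2 scale (SE 0.35, adjusted p = 0.00152). H2-T23 rose by 0.95 (SE 0.28, adjusted p = 0.0171), with 8.16, 30.1 and 136 CPM in KB2P and 9.18, 21.0 and 56.4 CPM in KB1P tumours. With the KB2P tumours of run 2749 alone neither was called (H2-T22 0.76, adjusted p = 0.195; H2-T23 0.46, adjusted p = 0.421), and H2-T23 was not called with limma (0.61, adjusted p = 0.17). The closest relative of H2-T22, H2-T10, had a log2 fold change of −0.04 (adjusted p = 0.95), and 31.2% of the 50-base words of H2-T22 also occur in H2-T10, so reads could be assigned to either. H2-Q5 (log2 fold change 1.82, adjusted p = 0.00863) shares 36.4% of its words with other H2 genes and is uncertain in the same way; it was called in 7 of 11 alternatives, and not with limma or run 2749 alone.

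The 7 genes that fell in KB2P lie beside H2-K1, in the Q region beyond H2-D1 and in the T region. H2-Q2 fell by 2.17 on the log2 scale (SE 0.32, adjusted p = 7.27e-07), with 1.58, 4.52 and 23.6 CPM (lowest, median, highest) in KB2P and 5.33, 24.3 and 76.7 CPM in KB1P tumours. H2-Q1 fell by 2.23 (SE 0.32, adjusted p = 4.73e-07) and H2-Q10, known in the liver as a secreted class I molecule, fell by 2.00 (SE 0.38, adjusted p = 0.000104). The neighbouring pseudogene H2-Q3 fell by 2.08 (adjusted p = 0.00307), the pseudogenes H2-Bl by 2.28 (SE 0.39, adjusted p = 1.67e-05) and H2-T-ps by 0.84 (adjusted p = 0.0167) in the T region, and H2-K2 beside H2-K1 by 1.10 (adjusted p = 0.00994). H2-Q3 rests on few reads, with a median of 0.0937 CPM and a highest level of 1.46 CPM over the 73 tumours. With the KB2P tumours of run 2459 alone 4 of the 7 were not called: H2-Q3 (−1.63, adjusted p = 0.0858), H2-Q10 (−1.36, adjusted p = 0.0609), H2-K2 (−0.67, adjusted p = 0.29) and H2-T-ps (−0.51, adjusted p = 0.29). H2-Q2 shares 15.4% of its 50-base words with other H2 genes and H2-Bl 6.40%. Other Q genes did not pass: H2-Q4 had a log2 fold change of −0.73 (95% interval −1.37 to −0.08, adjusted p = 0.132), H2-Q6 0.84 (−0.21 to 1.88) and H2-Q7 0.89 (−0.12 to 1.90).

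**Figure D4:**
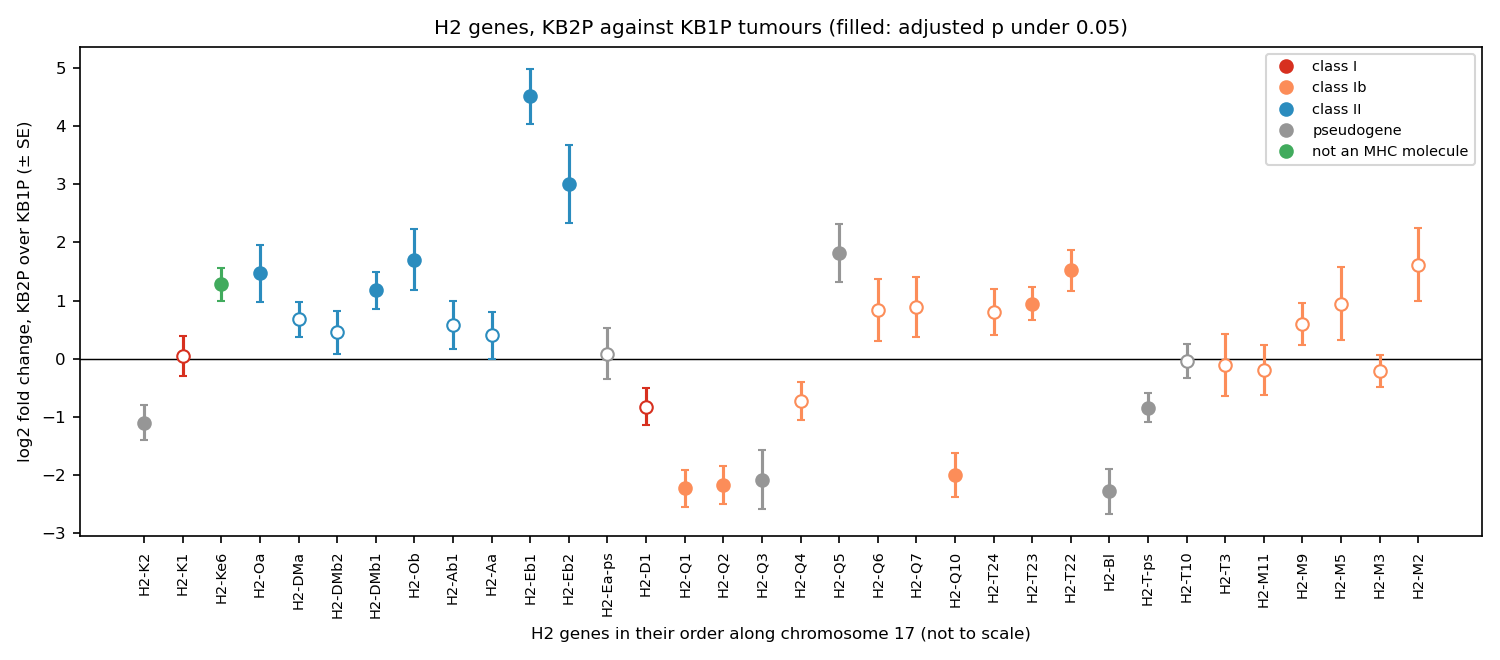
Log2 fold change with standard error of the 34 H2 genes tested, KB2P against KB1P, in their order along chromosome 17; filled points have an adjusted p under 0.05. Genes with positive and negative changes stand side by side, from 4.51 for H2-Eb1 to −2.28 for H2-Bl.

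For classical class I, H2-K1 had a log2 fold change of 0.05 (95% interval −0.62 to 0.72, adjusted p = 0.944) and H2-D1 −0.82 (−1.46 to −0.19, adjusted p = 0.0785). H2-D1 passed in 4 of 11 alternatives: with DESeq2 (adjusted p = 0.0494), without the 2 KB1P tumours of run 3528 (0.0491), without the 4 tumours rich in B cell markers (−0.98, adjusted p = 0.0497) and with the KB2P tumours of run 2749 alone (−1.43, adjusted p = 0.013). Among 13 other genes of the class I pathway, which make, transport and load peptides, none was called, and 2 had an unadjusted p under 0.05; B2m, the light chain, had a log2 fold change of −0.42 (adjusted p = 0.404) and the peptide transporter gene Tap1 0.01 (adjusted p = 0.991). None of 5 class II pathway genes was called, 1 with an unadjusted p under 0.05, and Cd74, the invariant chain, had 0.45 (adjusted p = 0.498). Of 16 regulators only Jak1, a kinase of interferon signalling, was called (fell by 0.30, adjusted p = 0.018); Nlrc5 had −0.58 (adjusted p = 0.384) and Ciita 0.40 (adjusted p = 0.529). The number of calls was 9 higher and 7 lower without the 3 adenocarcinomas low in epithelial markers, 9 higher and 8 lower without the 2 KB1P tumours of run 3528, 15 higher and 3 lower with the KB2P tumours of run 2459 alone, and 3 higher and 8 lower with those of run 2749 alone. H2-Eb1, H2-Bl, H2-Q1 and H2-Q2 were called in each of these 4.

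Counted against H2-K1 of the same tumour, 3 of the genes that fell in KB2P drew different lines through the series. H2-Q2 had 0.195 to 3.18 counts per 100 H2-K1 counts (median 1.65) in KB2P tumours and 3.02 to 8.34 (median 5.41) in the 50 others. H2-Bl had 0.144 to 2.35 in KB2P, 0.0887 to 2.00 in the 29 tumours of run 5625 and 3.09 to 5.20 in 19 KB1P and KB1PM tumours. H2-Q1 had 0.0603 to 1.86 in KB2P, 0.254 to 1.25 in run 5625 and 2.21 to 3.87 in the same 19 tumours. The 2 KB1P tumours of run 3528, numbers 4 and 11, lay with the other models for both genes, at 0.29 and 0.47 for H2-Bl and at 0.805 and 0.835 for H2-Q1. For H2-Q2 they lay with the KB1P tumours, at 5.85 and 6.49. H2-T22 went the other way, with 1.22 to 10.8 counts per 100 H2-K1 counts (median 4.68) in KB2P and 0.651 to 3.99 in the 50 others. These ratios describe the tumours and were not tested, and whether haplotype or mapping has a part in them was not tested either.

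**Figure D5:**
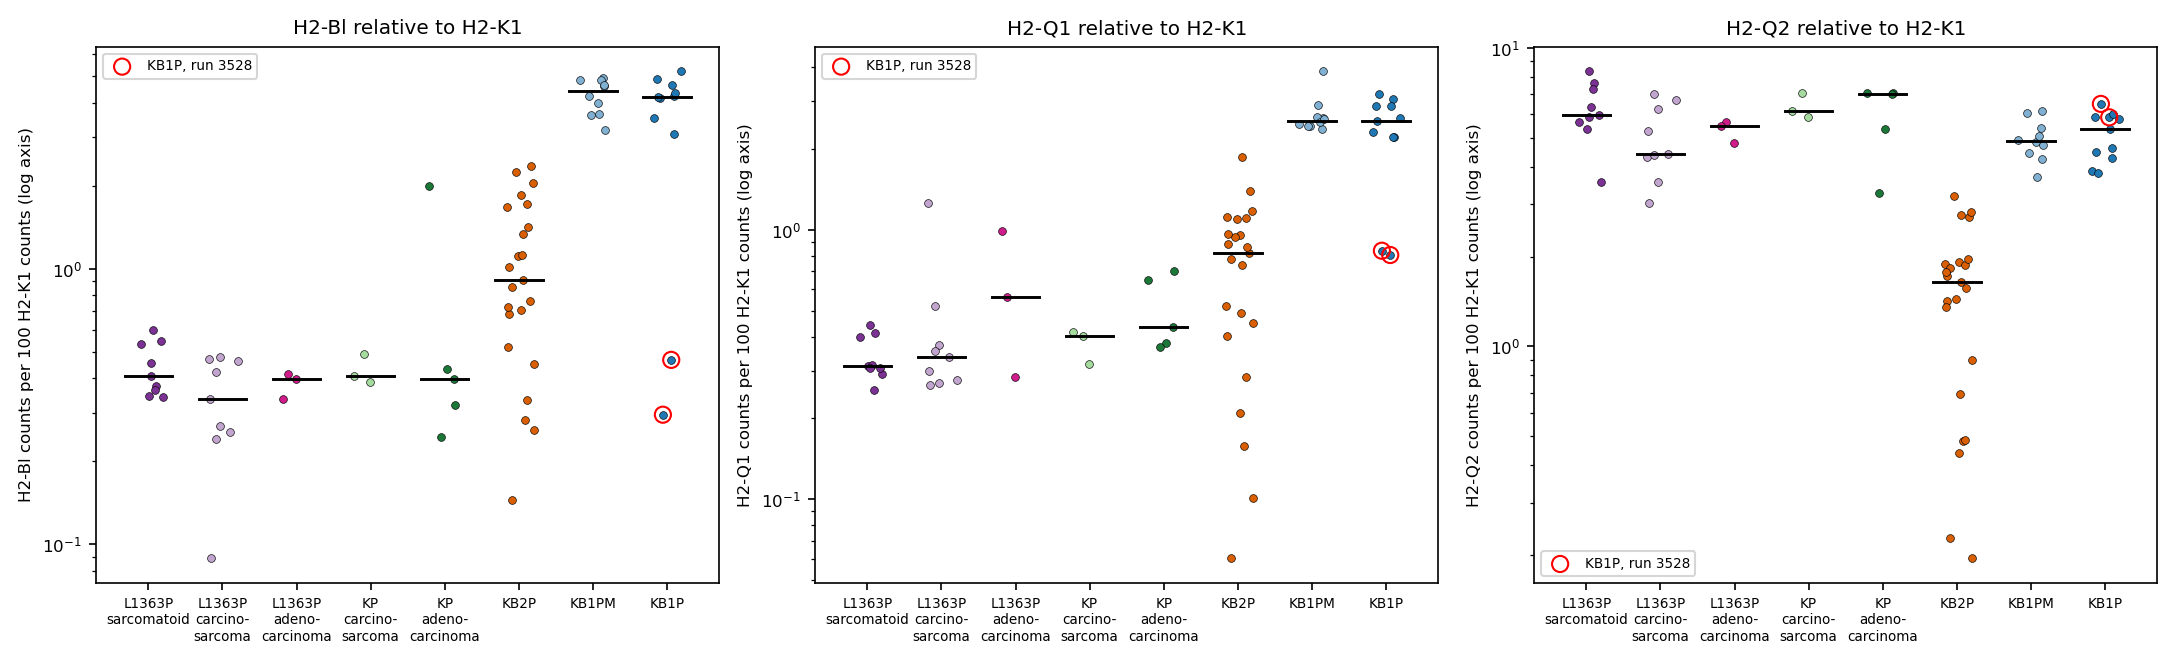
Counts of H2-Bl, H2-Q1 and H2-Q2 per 100 H2-K1 counts of the same tumour, log axis, 1 point per tumour by group with a bar at the median, and the 2 KB1P tumours of run 3528 ringed in red. H2-Bl and H2-Q1 are high in 19 KB1P and KB1PM tumours (3.09 to 5.20 and 2.21 to 3.87), the ringed tumours are not, and H2-Q2 is low in KB2P (0.195 to 3.18).

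Comparisons of adenocarcinomas of the other models with KB1P use the same 21 KB1P tumours. KP adenocarcinomas had 2 H2 genes higher and 3 lower of 34 (27.3% of all genes called). H2-DMa rose by 1.43 on the log2 scale (SE 0.45, adjusted p = 0.0134), with 16.1, 19.1, 23.3, 27.7 and 77.1 CPM in the KP adenocarcinomas, and H2-DMb1 by 1.35 (SE 0.47, adjusted p = 0.0236). H2-DMa lost its call without KP tumour 90.01A (0.85, adjusted p = 0.25), and so did H2-DMb1 (1.10, adjusted p = 0.132). Reads of H2-DMb1 could also be assigned to H2-DMb2, as given above. Of 10 macrophage markers 9 were higher in KP adenocarcinomas. Their sum was 10214 CPM in KP tumour 90.01A and 584, 1337, 1869 and 2651 CPM in the other KP adenocarcinomas. It was 429 to 1635 CPM in KB1PM and 298 to 2197 CPM in KB1P tumours. Higher too were 4 of 9 T and NK cell, 2 of 8 dendritic cell, 2 of 3 plasma cell and 4 of 7 mesenchymal markers. Of 5 class II pathway genes 3 were higher, and of 6 B cell markers none was called. Of 13 class I pathway genes 2 and of 16 regulators 4 were higher, and so was the leukocyte marker Ptprc. These calls are given with tumour 90.01A in, and the part of the markers in the DM levels was not tested. H2-Bl fell by 2.28 (adjusted p = 0.0144), H2-Q1 by 1.91 (adjusted p = 0.0119) and H2-Q3, which rests on few reads, by 3.30 (adjusted p = 0.0159), the last not called without KP tumour 39, with a change about as large (−3.01, adjusted p = 0.0503). In L1363P adenocarcinomas 1 of 34 genes was called (5% of all genes), H2-Bl, which fell by 3.15 (SE 0.99, adjusted p = 0.0466); when any of the 3 L1363P adenocarcinomas was left out it was not called (adjusted p 0.129 to 0.235), with log2 fold changes of −3.49 to −2.75. With no filter on low counts H2-Bl was not called either (−3.14, adjusted p = 0.0688), and H2-M1, at 0 to 0.645 CPM over the 73 tumours, was called higher (adjusted p = 0.0252). Without the adenocarcinomas low in epithelial markers 1 of 34 genes was called in L1363P adenocarcinomas, again lower. Between KB1PM and KB1P tumours edgeR called 0 of 34 H2 genes (0.887% of all genes), 1 had an unadjusted p under 0.05 and DESeq2 called 0; without the adenocarcinomas low in epithelial markers it was 0 as well.

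Within run 5625, where run is shared, few H2 genes were called between histologies. In L1363P sarcomatoid tumours against L1363P adenocarcinomas, 2 of 30 genes were lower and none higher, beside 30.6% of all 16143 genes called. H2-Oa fell by 1.95 (SE 0.57, adjusted p = 0.0125) and H2-M9, a class Ib gene known from the vomeronasal organ, by 1.46 (SE 0.51, adjusted p = 0.0304). Both rest on few reads. H2-Oa had 0.542, 3.83 and 0.877 CPM in adenocarcinomas 7.2, 26.2 and 52, and without tumour 26.2 its change was −0.66 (adjusted p = 0.5). H2-M9 was not called without tumour 26.2, with the change as large (−1.46, adjusted p = 0.0863), nor without tumour 52, where it was smaller (−0.90, adjusted p = 0.263). H2-K1 had a log2 fold change of −0.02 (95% interval −1.08 to 1.04, adjusted p = 0.983), H2-D1 0.38 (−0.74 to 1.50), H2-Aa 0.59 (adjusted p = 0.607), H2-Ab1 0.44 (−1.04 to 1.92) and H2-M3 1.01 (−0.01 to 2.03, adjusted p = 0.139). Markers of cell types moved in the same comparison, and their part in the H2 levels was not tested: 9 of 10 macrophage markers were higher in sarcomatoid tumours (sum 3967 to 7557 CPM, against 758 to 1260 CPM in adenocarcinomas, with no overlap), 7 of 7 mesenchymal markers were higher and 8 of 8 epithelial markers lower. Of the class II pathway the lysosomal proteases Lgmn (log2 fold change 2.33, adjusted p = 0.00851) and Ctsl (2.46, adjusted p = 0.0129) rose, and of the regulators Irf8 (1.81, adjusted p = 0.0161) and Jak1 (0.67, adjusted p = 0.0054). None of 13 class I pathway genes was called, 2 with an unadjusted p under 0.05.

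In L1363P carcinosarcomas against L1363P adenocarcinomas no H2 gene of 30 was called (2.7% of all genes), 1 had an unadjusted p under 0.05 and DESeq2 called none. Of the 30 genes 26 had a positive log2 fold change, with a median of 0.70 against 0.01 over all genes. In L1363P sarcomatoid tumours against L1363P carcinosarcomas 1 of 30 was called (21.5% of all genes): H2-Q6 fell by 1.47 (SE 0.53, adjusted p = 0.0474), and without carcinosarcomas 17 and 4 and KP tumour 90.01A it was not called (−1.27, adjusted p = 0.0765). There 28 of 30 had a negative log2 fold change, with a median of −0.68 against −0.04 over all genes, 8 had an unadjusted p under 0.05 and DESeq2 called 5 lower. Without those 3 tumours H2-M3 was called higher in sarcomatoid tumours, by 1.03 against carcinosarcomas (adjusted p = 0.0027, with them 0.37 and adjusted p = 0.451). Carcinosarcomas 17 and 4 have the lowest epithelial percentages of their group in the labels. Their summed epithelial markers were 107 and 337 CPM, within the sarcomatoid range of 65.8 to 455 CPM, so leaving them out sets the 2 histologies further apart. Against adenocarcinomas, where none of the 3 tumours is in either group, H2-M3 was called higher by 1.06 (adjusted p = 0.0217). Between KP carcinosarcomas and KP adenocarcinomas edgeR called 0 of 30 H2 genes and 0% of all genes, 2 H2 genes had an unadjusted p under 0.05 and DESeq2 called 0. The log2 fold change of H2-K1 there was 1.00, with a 95% interval of −0.14 to 2.14. L1363P against KP adenocarcinomas gave 0 of 30 calls (0.211% of all genes; 1 unadjusted p under 0.05), as did the test of whether the carcinosarcoma difference itself differed between L1363P and KP (0.0124% of all genes; 0 unadjusted); DESeq2 called 0 in both. Without KP tumour 90.01A each of these 3 comparisons also gave 0 calls.

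Runs within a model were compared too. In KB2P, tumours of run 2749 against those of run 2459 had 13 of 35 H2 genes lower and none higher, beside 7.32% of all genes called. Among them were 6 of 9 class II genes: H2-Ab1 fell by 2.12 (SE 0.54, adjusted p = 0.0104), H2-Aa by 1.93 (SE 0.53, adjusted p = 0.0192), H2-Eb1 by 1.96 (SE 0.53, adjusted p = 0.0169) and H2-DMa by 1.58 (SE 0.40, adjusted p = 0.00984). H2-Aa had 33.6, 113 and 313 CPM (lowest, median, highest) in run 2749 and 64.9, 312 and 1565 CPM in run 2459. H2-K1 (−1.30, adjusted p = 0.0673) and H2-D1 (−1.26, adjusted p = 0.0626) were not called. Beside these, 2 of 13 class I pathway genes, 1 of 5 class II pathway genes and 1 of 10 macrophage markers were lower and 0 of 6 B cell markers were called (3 had an unadjusted p under 0.05). The count was 1 with limma on the deposited log2 values and 0 when only the 2 runs entered the fit, DESeq2 called 16 lower, and without the adenocarcinomas low in epithelial markers 13 were lower. The ranges of the ratio of H2-Eb1 to H2-Aa, given above, overlapped between the runs. KB1P run 2119 against run 1857 gave 0 of 35 calls (0.0104% of all genes; 0 unadjusted p under 0.05) and KB1PM run 1756 against run 1725 0 of 35 (0.348% of all genes; 1 unadjusted); DESeq2 called 0 in each, as did the fit without the adenocarcinomas low in epithelial markers.

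Across tumours, H2-K1 varied with H2-D1 and H2-Aa with H2-Ab1, and H2-K1 and H2-Aa each varied with their class's transactivator. Other H2 members were not correlated. Correlations of log2 CPM were computed for 9 pairs of genes in 3 strata, the 29 tumours of run 5625, the 21 KB1P and KB1PM tumours and the 23 KB2P tumours, with two-sided permutation tests of 100000 resamples adjusted over the 27 relations. H2-K1 and H2-D1 had Pearson r of 0.97 (run 5625), 0.99 (KB1P and KB1PM) and 0.96 (KB2P), with Spearman rho of 0.97, 0.98 and 0.94. H2-Ab1 and H2-Aa had r of 0.99 in each stratum, with rho of 0.99, 0.99 and 0.97. B2m and H2-K1 had r of 0.95, 0.93 and 0.91 (rho 0.95, 0.89 and 0.90), and Nlrc5 and H2-K1 had r of 0.92, 0.93 and 0.88 (rho 0.93, 0.89 and 0.89). Each of these r has an adjusted permutation p of 1.35e-05, which rests on the smallest p that the resamples can give, 1e-05, and without the 2 tumours farthest from the median on the x axis the lowest of them was 0.87 (B2m in KB2P).

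For class II, Ciita and H2-Aa had r of 0.80 in run 5625, 0.96 in KB1P and KB1PM and 0.88 in KB2P (rho 0.70, 0.91 and 0.82; adjusted permutation p of r 1.35e-05 each), and 0.68, 0.94 and 0.81 without 2 tumours. Csf1r, a macrophage receptor, and H2-Aa had r of 0.84 in KB1P and KB1PM (rho 0.77, adjusted permutation p = 1.35e-05, 0.74 without 2 tumours) and 0.73 in KB2P (rho 0.62, adjusted permutation p = 9e-05, 0.64 without 2), but 0.18 in run 5625 (rho 0.18, permutation p = 0.339, adjusted 0.352, 0.09 without 2). Within the 6 sets of 1 group and run with at least 6 tumours, Csf1r and H2-Aa had r of 0.03 in the 9 L1363P sarcomatoid tumours (exact permutation p = 0.938) and 0.67 to 0.90 in the other 5. This relation passed in 5 sets by r and in 3 by rho. In KB2P its rho was 0.57 in run 2459 (adjusted permutation p = 0.151) and 0.57 in run 2749 (adjusted permutation p = 0.0809). Cd79a, a B cell gene, and H2-Aa had r of 0.60 in run 5625 (rho 0.63, permutation p = 0.00073, adjusted 0.000857, 0.52 without 2), 0.06 in KB1P and KB1PM (rho −0.02, permutation p = 0.776, adjusted 0.776) and 0.31 in KB2P (rho 0.19, permutation p = 0.144, adjusted 0.155). In run 5625 Cd79a rests on few reads, as all 6 B cell markers summed to 0.356 to 10.6 CPM. This relation passed in 1 of the 6 sets by r and by rho, the 9 L1363P carcinosarcomas (r 0.84, adjusted exact permutation p = 0.0127). Across the classes, H2-K1 and H2-Aa had r of 0.47 in run 5625 (rho 0.49, permutation p = 0.00986, adjusted 0.0111, 0.48 without 2), 0.70 in KB1P and KB1PM (rho 0.70, permutation p = 0.00037, adjusted 0.000454, 0.76 without 2) and 0.77 in KB2P (rho 0.65, permutation p = 1e-05, adjusted 1.35e-05, 0.64 without 2). By Pearson r that relation passed in 1 of the 6 sets of 1 group and run, where H2-K1 and H2-D1, H2-Ab1 and H2-Aa, B2m and H2-K1, Nlrc5 and H2-K1 and Ciita and H2-Aa passed in 6 of 6 (exact permutation tests in sets under 10 tumours, adjusted over 54 relations). By Spearman rho the counts lay closer together: H2-K1 and H2-Aa passed in 3 sets, Ciita and H2-Aa in 4, B2m and Nlrc5 with H2-K1 in 5 each, and H2-K1 and H2-D1 and H2-Ab1 and H2-Aa in 6. Without the adenocarcinomas low in epithelial markers, H2-K1 and H2-Aa passed in 2 sets by r and 4 by rho. By rho H2-K1 and H2-D1 then passed in 5 sets and Csf1r and H2-Aa in 4, and the other counts of sets given here did not change. In the 3 strata every relation given here kept its side of the threshold, with r of 0.45, 0.77 and 0.80 for H2-K1 and H2-Aa and 0.16, 0.85 and 0.78 for Csf1r and H2-Aa. For Cd79a and H2-Aa r was then 0.59 in run 5625, and 0.32 (permutation p = 0.113) without 2 further tumours.

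Some members with low medians reached high levels in single tumours. H2-M2 had 0 to 57.7 CPM over the 73 tumours and a median of 1.47 CPM. It had 0.391, 3.20 and 57.7 CPM (lowest, median, highest) in KB2P and 0.0905, 0.551 and 26.7 CPM in KB1P tumours of both titles, a log2 fold change of 1.62 that was not called (adjusted p = 0.0705). It was called higher with limma (2.01, adjusted p = 0.0128), with DESeq2 (1.61, adjusted p = 0.0325) and with the KB2P tumours of run 2459 alone (2.22, adjusted p = 0.0356). H2-T3, the thymus leukaemia antigen of the intestine, reached 7.19 CPM in KB2P tumour 2 and 6.26 CPM in KB1PM tumour 4 and had a median of 0.313 CPM. Members of higher level also varied widely: H2-Q6 and H2-Q7, which both encode Qa-2 and share words with each other, spanned 0.893 to 519 CPM and 1.10 to 366 CPM. H2-Ke6 had 0.176, 0.688 and 1.41 CPM (lowest, median, highest) in KB2P and 0.0940, 0.315 and 0.649 CPM in KB1P tumours, and rose by 1.28 (SE 0.28, adjusted p = 0.000949), with 12 of 23 KB2P tumours above all 21 KB1P tumours. With run 2459 alone it was not called (0.91, adjusted p = 0.0703). H2-Ke6 rests on few reads, with at most 23 counts in any tumour.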

How the data were processed

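RNA of 73 tumours was sequenced from strand-marking libraries, per the labels' protocols. Per the submitters' processing notes, reads were handled with cutadapt 2.10, STAR 2.7.3a, featureCounts 2.0.0 and DESeq on mm10; how strand was set in counting was not given in the sources used here. The authors deposited a table of raw counts per gene and a table of normalized log2 values (44 of the 45 members are in it). Counts were tested with edgeR 4.0.16 (R 4.3.3): TMM scaling, filterByExpr with a minimum count of 10, quasi-likelihood F test, Benjamini-Hochberg adjustment over all genes tested, threshold 0.05. Histologies were compared in the 29 libraries of run 5625, models in all 73 with 8 groups, and runs in all 73 with 13 group and run cells. KB1P as a reference is the mean of the KB1P and KB1PM groups at equal weight. Log2 CPM for correlations used a prior count of 2. Of the 9 gene pairs correlated, 1 is not reported here. Alternatives used DESeq2 1.42.0, limma 3.58.1 on the deposited log2 values, other scaling, no filter, left-out tumours and a replicate block; those naming run 3528, single KB2P runs, B cell or epithelial markers or KP tumour 90.01A were added after the data were seen. Replicate numbers did not pair tumours by the check of their deviations. The script was tested on simulated counts. Genes sharing 50-base words in the reference transcripts have uncertain counts. Genes were named by a rule: H2-K1, H2-D1, H2-Aa, H2-Ab1, H2-Eb1 and other core members, the members called (up to 10 per comparison), and members switching between high and near 0 within a group. The members and lists were chosen with earlier results of these data known. Of the pathway lists, 3 genes (Psme2, Ifi30 and Marchf1) have no row of that name and were not used here. Library totals were 7325180 to 31615237 counts, so a level near 0.1 CPM rests on about 3 counts or fewer.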

Additional observations from a re-analysis of the deposited data

Results flagged for a closer look

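In 40 sets of 1 gene and 1 group of 4 to 10 tumours, 8 values stood apart from the rest of their group by Dixon's criterion. For normally spread, independent values chance alone meets it in about 1 set in 20. The levels were taken as CPM without logarithms, and genes of the same tumour vary together, so that rate need not hold here. L1363P carcinosarcoma 4 accounts for 4 of them, all class II: H2-Aa at 3227 CPM (nearest other carcinosarcoma 681 CPM), H2-Ab1 at 1299 CPM (337 CPM), H2-Eb1 at 37.3 CPM (7.86 CPM) and H2-DMa at 158 CPM (48.5 CPM). Its summed macrophage markers were 6092 CPM and its summed epithelial markers 337 CPM, in groups that ranged from 1103 to 8407 CPM and from 107 to 4162 CPM. Among L1363P sarcomatoid tumours, tumour 32 stood apart for H2-Aa at 1362 CPM (nearest other 494 CPM) and H2-Ab1 at 526 CPM (244 CPM), with summed macrophage markers of 5868 CPM in a group that ranged from 3967 to 7557 CPM. Among KP adenocarcinomas, tumour 90.01A stood apart for H2-M3 at 41.9 CPM (15.6 CPM) and H2-DMa at 77.1 CPM (27.7 CPM). Its summed macrophage markers were 10214 CPM and its summed epithelial markers 250 CPM. The part of these markers in the levels was not tested.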

How the results depend on the processing

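No result past the threshold changed direction under the alternatives run. Of 135 recomputed counts of called H2 genes 117 were within 1.5 times the reported count, and the 27 correlations kept their side of the threshold in all 108 recomputations. The 117 include every recomputation of the comparisons with 0 calls, which stayed at 0. All 18 changed counts fell among the comparisons with calls. A count within that range can also hold another gene, as given below for L1363P adenocarcinomas. In L1363P sarcomatoid tumours against adenocarcinomas (2 called) the count was 1 with no filter on low counts, 0 with limma on the deposited log2 values and 0 to 2 when single tumours were left out. In sarcomatoid tumours against carcinosarcomas (1 called) it was 0 with no filter, 0 with limma and 5 with DESeq2. In KB2P against KB1P (16 called) it was 13 with limma, 12 with only the groups compared and 11 with run 2749 alone, and the replicate block left 1, H2-Eb1; replicate numbers of 17 pairs correlated from −0.173 to 0.446 (median −0.00055), so they share only a number. In L1363P adenocarcinomas against KB1P (1 called) it was 2 with DESeq2, 1 with no filter (H2-M1, higher, in place of H2-Bl, lower), 0 with only the groups compared and 0 to 0 when single tumours were left out. In KP adenocarcinomas against KB1P (5 called) it was 3 to 5 when single tumours were left out, 3 without KP tumour 90.01A and 3 without the adenocarcinomas low in epithelial markers. For KB2P run 2749 against run 2459 (13 called) it was 1 with limma and 0 with only the groups compared. The cause was not tested. With no filter, the median log2 fold change of all genes was −0.25 in L1363P adenocarcinomas and −0.20 in KP adenocarcinomas against KB1P. Depth limits members under about 1 CPM, groups of 3 tumours give wide intervals, and model and run cannot be told apart.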
